A study of Homo sapiens with 63 samples.

Results

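The mRNAs of 9 lysosomal proteins, HEXA, GLA, IDS, CTSD, CTSB, LAMP1, LAMP2, NPC1 and NPC2, were followed across polysome gradients of starved and growing human cells. They were taken by name, and all 9 were among the 11074 genes of the deposited table and among the 10889 that passed the filter on low values. The lysosome is an acidic organelle in which hydrolases break down proteins, glycans, lipids and glycosaminoglycans, and its membrane, lined by proteins such as LAMP1 and LAMP2, is also a surface on which nutrient supply is sensed. Its soluble enzymes are made on ribosomes bound to the endoplasmic reticulum, tagged with mannose 6-phosphate in the Golgi and sorted to the lysosome. Many lysosomal genes carry a binding motif for the transcription factors TFEB and TFE3, which are known to move into the nucleus when amino acids are short and the kinase mTORC1 is inactive. mTORC1 also governs the translation of mRNAs that start with a terminal oligopyrimidine (TOP) tract, chiefly those of ribosomal proteins and elongation factors.

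The cells were HEK293, an established human embryonic kidney line. Serum starved cells were kept for 2 h without fetal bovine serum, amino acid starved cells for 1 h in Earle's salt solution with vitamins, serum and antibiotics, and log phase cells grew in DMEM with serum and antibiotics. The labels do not say whether the serum of the amino acid starved cells was dialysed. Cells of all groups received cycloheximide, which holds ribosomes on mRNA, before lysis in a buffer with the detergent NP40. Lysates were spread on a gradient, and polyadenylated RNA of fractions 3 to 22 was sequenced, giving 20 libraries for each condition from 1 gradient each. With 1 gradient per condition no difference has a replicate check, no p-value was computed, and fractions are not replicates. Of 7 HEK293 markers, 5 were listed in the table (NEFL, NEFM, VIM, KRT8 and KRT18) and PAX2 and LHX1 were not, while none of the 6 markers of other lineages was listed.

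Gene totals of single fractions ran between 36830 and 66981627 on the deposited scale, so each fraction carries a scale of the authors' own, on which the labels are silent. For that reason 3 measures were used. The relative signal is a gene's part per 1000000 of the gene total of its fraction, and it does not depend on that scale. The position is the mean fraction number weighted by deposited signal, and the level is a gene's summed deposited signal in parts per 1000000 of its gradient, both of which do depend on it. Each value was also computed from odd and from even fraction numbers alone, and the gap between these served as the spread within a gradient. Which fractions are the heavier ones is not stated in the labels. In bulk lysates, fewer cells with an mRNA and less of it per cell cannot be told apart.

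IDS and NPC2 lay at lower-numbered positions than the other lysosomal mRNAs in all 3 gradients, and the other 7 lay near or above the median gene. The median position of the 9 was 15.92 in serum starved cells, 15.34 in amino acid starved cells and 17.42 in log phase cells. The median of all tested genes was 15.62, 15.12 and 16.94 in the same order. In log phase the order ran from LAMP2 at 18.30, LAMP1 at 18.08 and NPC1 at 17.65 through HEXA at 17.46, CTSD at 17.42, GLA at 17.34 and CTSB at 16.67 to NPC2 at 16.36 and IDS at 11.76. The odd and even values of neighbours did not separate NPC1 from HEXA or HEXA from CTSD, and separated every other pair of neighbours. In serum starved cells LAMP1 was highest at 16.84 and IDS lowest at 8.09, and neighbours were apart beyond that spread only between CTSB and HEXA, CTSD and NPC2, and NPC2 and IDS. In amino acid starved cells LAMP1 at 15.93 and IDS at 8.42 again ended the order, and only the steps from CTSD to NPC2 and from NPC2 to IDS exceeded the spread.

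By level, on the deposited scale, HEXA was the most abundant and LAMP2 and NPC1 the least abundant in all 3 gradients. This ranking depends on that scale. In log phase the median relative signal was 42.7 for NPC2 and 42.4 for HEXA, and the mean over fractions 3 to 7 was 618 for IDS and 47.7 for HEXA. The order in serum starved cells was HEXA, NPC2, CTSD, GLA, CTSB, IDS, LAMP1, LAMP2 and NPC1, and the spread did not separate NPC2 from CTSD or IDS from LAMP1. In amino acid starved cells the order was the same, and CTSD was not separated from GLA, nor IDS from LAMP1. In log phase it was HEXA, GLA, CTSD, NPC2, CTSB, LAMP1, IDS, LAMP2 and NPC1, and neither GLA and CTSD nor CTSD and NPC2 were separated. Since the table's name gives its values as TPM, they are taken to be per transcript length.

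**Figure D1:**
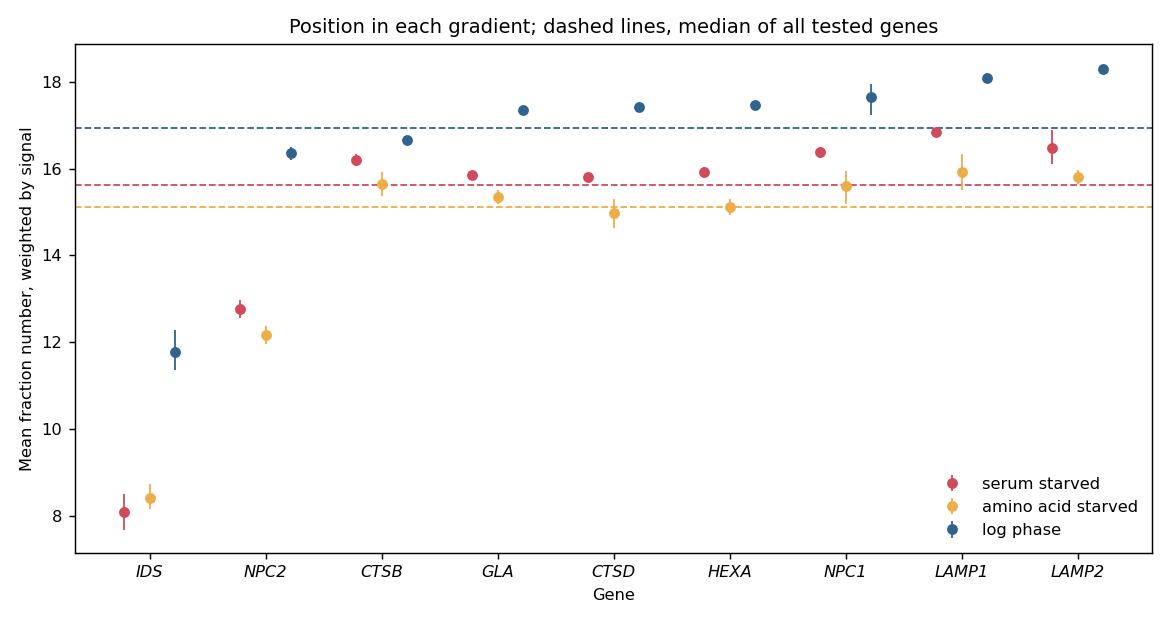
Position of each lysosomal mRNA (mean fraction number weighted by deposited signal, vertical axis) in the serum starved, amino acid starved and log phase gradients; bars reach the values from odd and from even fractions, and dashed lines are medians of the 10889 tested genes. IDS and NPC2 stand apart from the other 7 in both starved gradients, where NPC2 lies at 12.77 and 12.17.

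HEXA encodes the alpha subunit of beta-hexosaminidase, which degrades GM2 ganglioside. Its relative signal had a lowest, median and highest value of 7.68, 92.3 and 283 in serum starved fractions. The same 3 values were 6.49, 109 and 251 in amino acid starved fractions and 6.61, 42.4 and 99.0 in log phase fractions. In fractions 6 and 7 log phase was above both starved gradients, whereas from fraction 13 onward every starved fraction was above 100 and every log phase fraction was below 100. In fraction 16 the values were 190 in serum starved, 251 in amino acid starved and 40.6 in log phase cells. Relative to the median gene of each fraction, HEXA was higher in 20 of 20 fractions in both starved gradients than in log phase, against a median of 10 over all tested genes. Over fractions 13 to 17 the mean log2 ratio relative to the median gene was 1.96 for serum starved and 2.06 for amino acid starved over log phase cells, above 99.8% of tested genes in each.

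As a level, HEXA stood at 131 in serum starved, 113 in amino acid starved and 58.3 in log phase cells. Relative to the median gene, its log2 difference from log phase was 1.58 (odd 1.57, even 1.59) in serum starved and 1.54 (odd 1.54, even 1.53) in amino acid starved cells. On the deposited scale HEXA was the highest of the 9 in level in all 3 gradients, and its odd and even values were clear of the next gene in each. Its shift, the difference in position from log phase relative to the median gene, was -0.19 fractions in serum starved and -0.55 in amino acid starved cells.

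Among the genes whose profiles were most like that of HEXA were IGFBP2 and MFSD10, each with r = 0.962 over the 60 fractions of the 3 gradients. These correlations use log2 relative signal, share libraries and fraction totals, and are given as descriptions. The median over all tested genes was 0.686. Of the 100 genes nearest to HEXA, 8 were other lysosomal hydrolases or activators and 7 belonged to the comparison list of secretory pathway genes. These lists held 42 and 37 of the 10889 tested genes. For the other members the hydrolases ran from 0 (LAMP1 and IDS) to 6 (CTSB) of the 100, and the secretory genes from 0 (IDS) to 6 (NPC1).

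GLA encodes alpha-galactosidase A, which removes terminal galactose from glycolipids. Its relative signal ran from 3.49 through a median of 49.1 to 124 in serum starved, from 9.95 through 49.99 to 132 in amino acid starved, and from 9.36 through 36.6 to 80.6 in log phase fractions. From fraction 13 onward both starved gradients were above log phase at every fraction number. In fractions 18 to 22 the mean relative signal was 117 in serum starved, 113 in amino acid starved and 67.1 in log phase cells. GLA was higher than in log phase, relative to the median gene, in 19 of 20 serum starved and 20 of 20 amino acid starved fractions. Its level difference was 0.64 and 0.62 on the log2 scale, below the size rule for levels explained with the counts further on, and its shift was -0.14 and -0.20 fractions. Among the nearest profiles were those of ITM2B at 0.974 and ACY1 at 0.968.

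CTSD encodes cathepsin D, the main aspartic protease of the lysosome. Its relative signal had a lowest, median and highest value of 4.52, 66.02 and 155 in serum starved fractions, 3.69, 57.8 and 130 in amino acid starved fractions and 8.94, 33.0 and 76.7 in log phase fractions. In fractions 13 to 17 the means were 103, 105 and 39.9 in that order, while in fractions 3 to 7 they were 25.5, 21.3 and 22.6. The starved gradients were thus apart from log phase in the higher-numbered fractions and overlapped it in the lowest. Its level was 78.8 in serum starved, 59.8 in amino acid starved and 52.7 in log phase cells, a log2 difference of 1.00 and 0.77 relative to the median gene. The serum value lay at the edge of the size rule and was under it when any of fractions 5, 13, 14, 15, 16 or 17 was left out (lowest 0.95). The nearest profiles were those of EMC10 at 0.974, NUCB1 at 0.968 and SIL1 at 0.963, and HEXA was the nearest of the other members at 0.951.

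CTSB encodes cathepsin B, a cysteine protease, and on the deposited scale it had the highest shift of the 9. Its relative signal ran from 3.32 through a median of 35.9 to 107 in serum starved, from 4.50 through 34.7 to 109 in amino acid starved, and from 6.76 through 33.0 to 66.2 in log phase fractions. In fractions 8 to 12 the means were 16.0 in serum starved, 10.8 in amino acid starved and 20.0 in log phase cells, so that both starved gradients were lower there. In fractions 18 to 22 they were higher, at 79.3, 66.1 and 37.1. Relative to the median gene, the mean log2 ratio over log phase in fractions 8 to 12 was 0.05 in serum starved and -0.14 in amino acid starved cells. With 53.1% and 40.8% of tested genes below it, CTSB was near the median gene there. In fractions 18 to 22 the same ratio was 0.89 and 0.60. Its shift was 0.88 fractions (odd 0.81, even 0.94) in serum starved and 0.77 (odd 0.73, even 0.80) in amino acid starved cells, above 92.1% and 88.2% of tested genes and under the size rule of 1 fraction. Before that centring it lay lower than in log phase on the deposited scale, by -0.47 and -1.03. With equal fraction totals it lay higher, at 16.36 in serum starved and 16.19 in amino acid starved cells against 14.17 in log phase. So did the median gene, at 15.91 and 16.01 against 14.22. On that scale NPC1 rose further than CTSB, to 17.57 and 17.40 from 14.22. The level of CTSB is given on the deposited scale. Its level was 46.6 in serum starved, 38.0 in amino acid starved and 45.6 in log phase cells. Its nearest profiles were those of MARCKSL1 at 0.968, MGAT4B at 0.966 and MESD at 0.961, and none of the other members was among its 100 nearest genes.

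LAMP1 and LAMP2 encode the heavily glycosylated proteins that line the lysosomal membrane. LAMP1 had a lowest, median and highest relative signal of 1.81, 18.4 and 108 in serum starved fractions, 2.02, 14.8 and 88.5 in amino acid starved fractions and 2.90, 13.2 and 61.9 in log phase fractions. LAMP2 had 0.33, 3.19 and 16.3, then 0.76, 2.75 and 16.5, and 0.61, 2.53 and 10.9 in the same 3 gradients. Most of their log phase signal lay in fractions 18 to 22, which held 69.1% of LAMP1 and 72.6% of LAMP2, against a median of 48.5% over all tested genes. These shares were 56.2% and 55.2% in serum starved and 38.7% and 42.7% in amino acid starved cells, where the medians over all genes were 39.1% and 27.2%.

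The shift of LAMP1 was 0.11 fractions in serum starved and -0.35 in amino acid starved cells, and that of LAMP2 was -0.47 and -0.70. LAMP1 had a level of 29.3 in serum starved, 21.6 in amino acid starved and 29.6 in log phase cells, and its centred log2 differences from log phase were 0.42 and 0.15. LAMP2 had levels of 5.39, 4.32 and 4.47, with differences of 0.66 and 0.55. Its amino acid value was under the minimum level of 5 and was not counted. The profiles nearest to LAMP1 were those of SERPINH1 at 0.976, PPP2R5D at 0.973 and PDIA4 at 0.972, and those nearest to LAMP2 were PDIA3 at 0.952, AKR1B1 at 0.950 and CALR at 0.944. SERPINH1, PDIA4, PDIA3 and CALR are chaperones or folding enzymes of the endoplasmic reticulum.

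The promoters of LAMP1 and CTSD are shown because they hold the core of the TFEB motif, CACGTG, which reads the same on both strands. RefSeq windows of 300 bases (250 before and 50 after the annotated start, GRCh38.p14) matched 6 of the 9 genes, the others being HEXA, CTSB and LAMP2. The bases before the start follow 5′ to 3′ on the gene's strand, chr13:113296989-113297238 for LAMP1 (plus strand) and chr11:1763928-1764177 for CTSD (minus strand), with CACGTG in capitals.
LAMP1: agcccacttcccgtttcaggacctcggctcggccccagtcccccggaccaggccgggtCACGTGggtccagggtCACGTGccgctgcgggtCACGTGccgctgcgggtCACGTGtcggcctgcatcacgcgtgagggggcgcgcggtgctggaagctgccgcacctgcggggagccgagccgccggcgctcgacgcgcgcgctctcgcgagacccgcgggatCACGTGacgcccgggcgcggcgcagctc
CTSD: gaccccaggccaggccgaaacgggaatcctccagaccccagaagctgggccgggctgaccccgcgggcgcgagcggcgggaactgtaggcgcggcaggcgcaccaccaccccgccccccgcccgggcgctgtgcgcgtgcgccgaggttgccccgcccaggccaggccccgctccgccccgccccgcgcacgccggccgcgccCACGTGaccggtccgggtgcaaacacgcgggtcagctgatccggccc

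LAMP1 held 6 copies of CACGTG in its window, of which 5 lie in the bases shown and 1 spans the start, and CTSD held 1. Of all 35116 windows 7.26% held at least 1 copy, and only 5 held at least 4. Of the 12619 windows of tested genes 9.70% held at least 1 copy, and 4 held at least 4. The longer palindrome TCACGTGA was present in LAMP1 (2 copies), in 0.980% of all windows and in 1.78% of those of tested genes. It overlaps with CACGTG by construction, and was found in no other member. The windows of GLA, IDS, NPC1 and NPC2 had no CACGTG, which says only that these letters are not in that stretch.

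NPC1 is a membrane protein and NPC2 a small soluble protein, and together they pass cholesterol out of the lysosome. NPC1 was the least abundant member, with a lowest, median and highest relative signal of 0.31, 2.36 and 12.9 in serum starved, 0.32, 1.81 and 10.6 in amino acid starved, and 0, 1.37 and 4.28 in log phase fractions. In fractions 18 to 22 its means were 8.496 and 7.46 in the starved gradients and 2.98 in log phase. Its levels of 2.97, 2.45 and 1.68 were under the minimum for counting, and the centred log2 differences of 1.00 and 0.96 are given as values only. Its shift was 0.07 fractions (odd -0.58, even 0.82) in serum starved and -0.26 (odd -0.52, even 0.06) in amino acid starved cells, which is within the spread of the fractions. The nearest profiles were those of PNPLA6 at 0.928, APLP2 at 0.925 and PTK7 at 0.920.

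The profile of NPC2 was flatter than that of NPC1. Its relative signal ran from 45.4 through a median of 78.4 to 107 in serum starved, from 47.5 through 75.2 to 84.5 in amino acid starved, and from 22.4 through 42.7 to 65.6 in log phase fractions. It was higher at all 20 fraction numbers in both starved gradients than in log phase before any centring, while the median gene was higher at 7 and 8 of them. The gap was widest at fractions 6 and 7. There the deposited log phase signal of NPC2 was only 0.83 and 1.85, in the fractions of lowest gene total in that gradient. The log2 ratio over log phase was 1.08 and 1.05 at fraction 5, and 1.12 and 1.05 at fraction 11, in serum and amino acid starved cells. In fractions 3 to 7 the mean was 74.2 in serum starved, 75.4 in amino acid starved and 32.1 in log phase cells, and in fractions 18 to 22 it was 56.1, 59.0 and 40.8.

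Its position was 12.77 in serum starved, 12.17 in amino acid starved and 16.36 in log phase cells. Relative to the median gene this was a shift of -2.24 fractions (odd -2.51, even -1.98) and -2.39 (odd -2.34, even -2.42), with 2.12% and 1.74% of tested genes below it. Fractions 8 to 12 held 46.9% of NPC2 signal in serum starved, 56.3% in amino acid starved and 10.5% in log phase cells. The medians over all genes were 22.5%, 23.1% and 7.17%. These fractions held 45.7%, 55.0% and 12.8% of the gene total, so the NPC2 shares were near those of the whole signal. Weighted by log2 signal, which evens out a profile, the shifts were -0.59 and -0.57. For comparison, EEF1A1, an elongation factor with a TOP tract, had shifts of -5.23 and -4.99, GAPDH -3.57 and -3.89, and ACTB 0.46 and 0.19.

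The gene nearest to NPC2 in profile was RGS10 at r = 0.879, the lowest such value of the 9, followed by SSR4 at 0.725 and RPL14 at 0.712, and its nearest fellow member was HEXA at 0.164. RGS10 regulates G protein signalling, SSR4 is a subunit of the translocon-associated protein complex, and RPL14 is a protein of the large ribosomal subunit. The first 20 bases of the annotated transcripts (RefSeq, GRCh38.p14) are shown for these genes and the members with a window, since a TOP tract would lie there. Capitals mark the unbroken run of C and T from the first base.
NPC2, chr14:74493286-74493305, minus strand: CTTTCCCgagcttggaactt
NPC2, chr14:74493493-74493512, minus strand: ggtccgggcgggtcaggcct
RGS10, chr10:119542700-119542719, minus strand: CTCCTCCTCCTCCTCgcctt
RGS10, chr10:119536567-119536586, minus strand: CTTCggacccaagggtgctc
SSR4, chrX:153794449-153794468, plus strand: gattcacgcccccttccggc
SSR4, chrX:153794668-153794687, plus strand: CTCTaggcagagaagaggcg
NPC1, chr18:23586487-23586506, minus strand: CTTCCTgaccggcgcgcgca
LAMP1, chr13:113297239-113297258, plus strand: acgtgacaagcgctgccggc
CTSD, chr11:1763908-1763927, minus strand: aactgcggcgtcatcccggc
GLA, chrX:101407906-101407925, minus strand: atgctgtccggtcaccgtga
IDS, chrX:149505287-149505306, minus strand: actcgcgctgcggccagcgc
RPL14, chr3:40457339-40457358, plus strand: CTTCTCgcctaacgccgcca
EEF1A1, chr6:73521013-73521032, minus strand: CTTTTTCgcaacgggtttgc

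An annotated start with a C and then at least 4 pyrimidines was present in 1 of the 2 NPC2 windows, in 1 of the 2 RGS10 windows, in NPC1, RPL14 and EEF1A1, and in neither SSR4 window. It was present in 4.07% of all windows and in 5.41% of those of tested genes. The values are per gene symbol, so which of the 2 annotated NPC2 starts the cells used was not measured.

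IDS encodes iduronate 2-sulfatase, which acts on heparan and dermatan sulfate, and its mRNA had the lowest position of the 9 in every gradient. Its relative signal had a lowest, median and highest value of 3.03, 14.0 and 333 in serum starved, 2.97, 11.4 and 292 in amino acid starved, and 2.77, 12.0 and 952 in log phase fractions. In every gradient fractions 4 to 7 exceeded all others. The means over fractions 3 to 7 were 209, 187 and 618, and over fractions 18 to 22 they were 4.54, 5.32 and 3.88. The starved gradients were therefore lower than log phase in fractions 3 to 7, and at every fraction number up to 11. Relative to the median gene, the mean log2 ratio over fractions 3 to 7 was -0.79 in serum starved and -0.84 in amino acid starved cells. Over fractions 8 to 12 it was 0.16 and -0.06, with 62.1% and 46.4% of tested genes below it, so the difference there was near that of the median gene.

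By position IDS was the 10th lowest of the 10889 tested genes in serum starved, the 14th in amino acid starved and the 15th in log phase cells. Its nearest profiles were those of TCF23 at 0.920, MTRNR2L4 at 0.905 and IRGQ at 0.905, and its correlation with each of the other 8 members was negative, between -0.14 and -0.68. A pseudogene, IDSP1, is annotated on the same chromosome. Values are per gene symbol, and reads shared with such a copy could have been assigned to either, so the IDS profile is uncertain in that respect.

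On the deposited scale IDS had a shift of -2.33 fractions (odd -2.54, even -2.25) in serum starved and -1.54 (odd -1.13, even -2.02) in amino acid starved cells, and its level was 29.4 and 22.6 against 9.63 in log phase. The level differences of 1.94 and 1.74 on the log2 scale were the highest of the 9. With every fraction scaled to the same total they were -1.21 and -1.39, the opposite direction, and the serum shift was -0.89. Scaled by the ERCC spike-in RNA the level differences were 0.72 and 0.66 and the shifts -0.05 and 0.25. On the deposited scale fractions 3 to 7 held 5.69% of the gene total in serum starved, 4.71% in amino acid starved and 0.299% in log phase cells, so for an mRNA of these fractions the direction of the level follows the scale given to them.

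**Figure D2:**
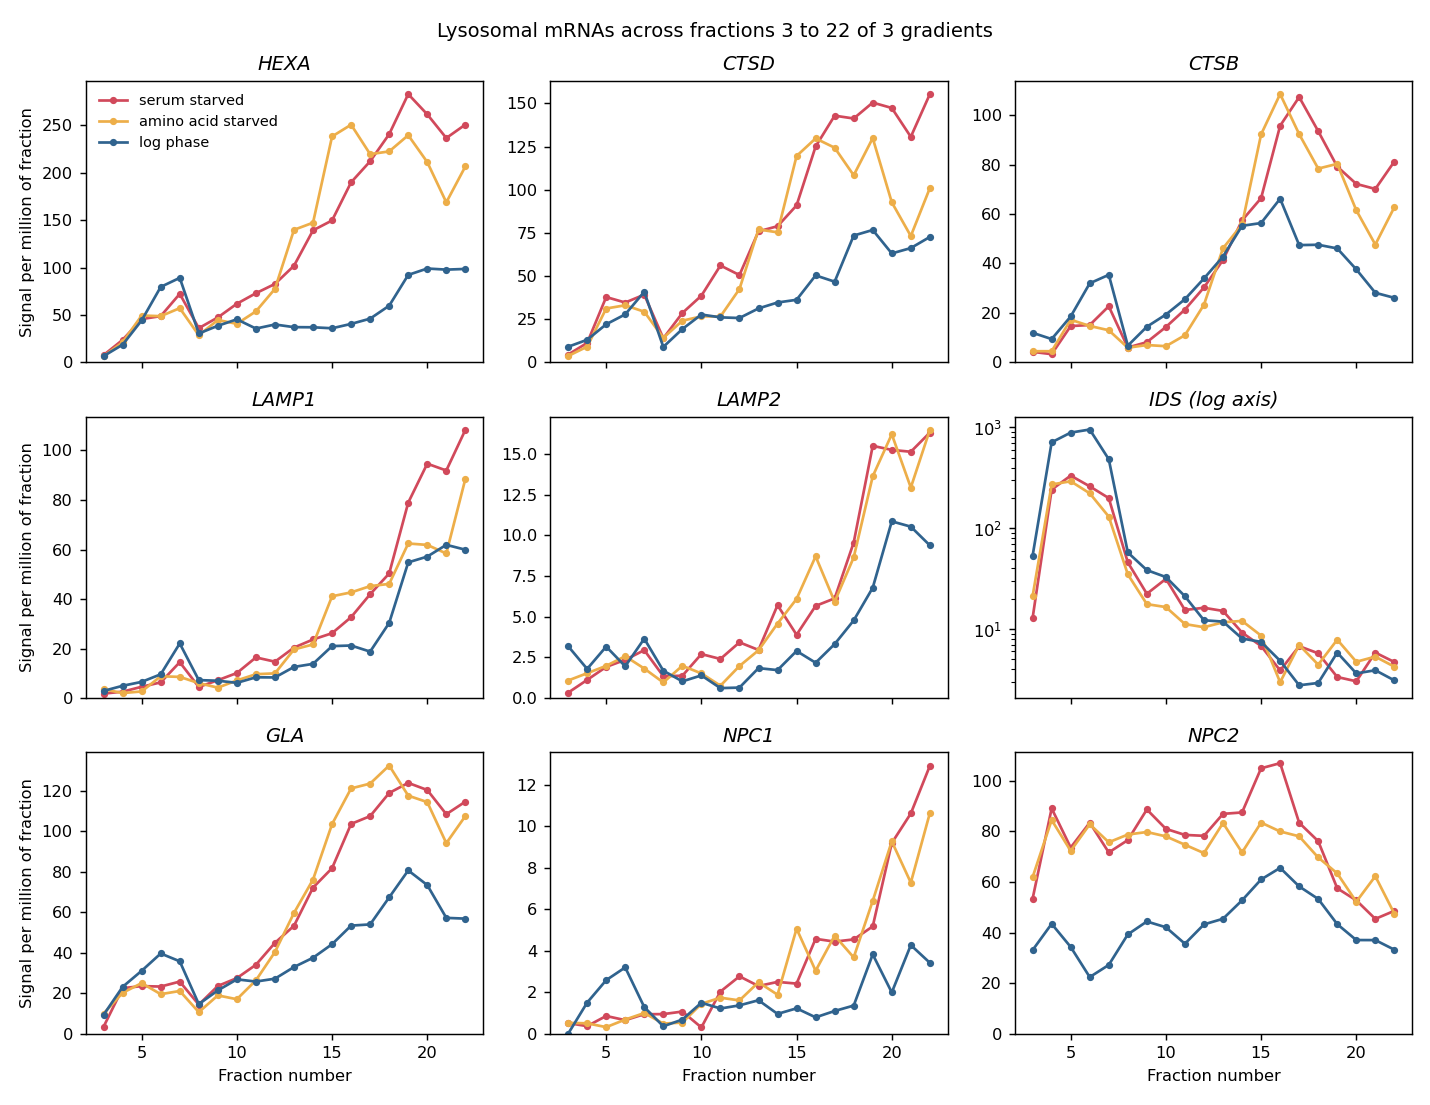
Signal per 1000000 of the gene total of each fraction (vertical axis, logarithmic for IDS) against fraction number for the 9 lysosomal mRNAs in the serum starved, amino acid starved and log phase gradients, 1 point per library. HEXA reaches 283 and 251 in the starved gradients and 99.0 in log phase, and IDS peaks in fractions 4 to 7 of all 3.

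Shifts were counted by size and not by a test. The rule asked for 1 fraction or more relative to the median gene, with 0.5 or more on the same side in the odd and in the even fractions taken alone. In serum starved cells 2 of the 9, IDS and NPC2, met it towards lower numbers and 0 towards higher, while 9.86% and 5.7% of all tested genes did so (15.6% in either direction). In amino acid starved cells the same 2 met it towards lower numbers and 0 towards higher, against 9.57% and 6.84% of all genes (16.4% in either direction). Without fraction 19 the amino acid shift of IDS, at -1.03, no longer met it and that of LAMP2, at -1.08, did. The median shift of the 9 was -0.19 and -0.55, against 0 for all genes by construction. Before centring, all 9 lay at lower-numbered positions in both starved gradients on the deposited scale. So did the median gene, by -1.35 and -1.80 fractions. With every fraction scaled to the same total the direction was the opposite for both medians. The median gene then lay at 15.91 in serum starved, 16.01 in amino acid starved and 14.22 in log phase cells. The median of the 9 was 16.32, 16.18 and 14.30 in that order. NPC2 still lay lower in both starved gradients, at 12.14 and 12.07 against 13.06. Both comparisons share the log phase gradient.

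The rule for levels asked for a log2 difference of 1 or more from the median gene, and 0.5 or more in odd and in even fractions alone. It was applied to members with a level of at least 5 in either gradient, which were 8 in the serum and 7 in the amino acid comparison. In serum starved cells HEXA, CTSD, IDS and NPC2 met it as higher and 0 as lower, while 3.06% and 0.903% of all genes did so (3.96% in either direction). In amino acid starved cells HEXA, IDS and NPC2 met it as higher and 0 as lower, against 4.96% and 2.84% of all genes (7.8% in either direction). NPC2 was at 1.08 (odd 1.13, even 1.04) and 1.15 (odd 1.14, even 1.17). It was under the rule with ERCC scaling, at 0.97 in both, with a pseudocount of 10, at 0.84 and 0.85, and, in amino acid starved cells, with equal fraction totals, at 0.94. On the deposited scale every counted member was above the median gene in both comparisons, with medians of 0.83 and 0.77, while with equal fraction totals IDS was below it, at -1.21 and -1.39. The median gene itself lay at -0.43 in serum starved and -0.59 in amino acid starved cells before centring. Without centring the member medians were 0.40 and 0.18 and the counts 2 and 1, HEXA being at 0.95 in amino acid starved cells. The share of all genes past the rule without centring was not computed.

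Level and shift come from the same values, so they are not independent. The comparison at matched fraction numbers shows where the difference lay. Relative to the median gene of each fraction, 8 or 9 of the 9 were above log phase at every fraction number from 10 to 22 in serum starved cells, and 7 to 9 of them in amino acid starved cells. At fraction numbers 5 to 9 it was 7 or 8 of the 9 in serum starved and 6 to 8 in amino acid starved cells. At fraction 4 it was 5 of the 9 in both, and at fraction 3 it was 4 and 5. The medians of the 9 at fraction 11 were 1.16 and 0.97 on the log2 scale, and at fraction 22 they were 0.68 and 0.36.

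**Figure D3:**
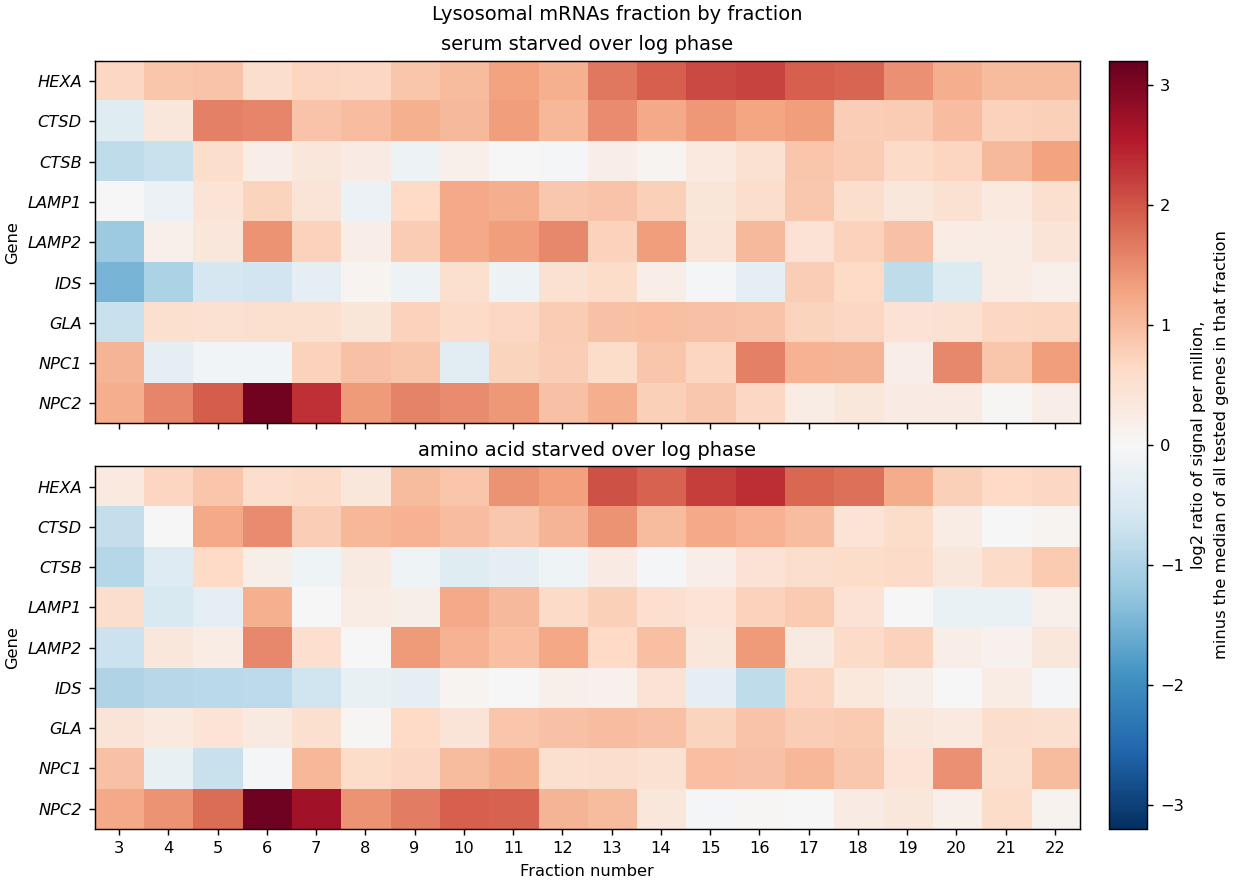
The log2 ratio of relative signal at matched fraction numbers, minus the median of all tested genes in that fraction, for serum starved over log phase cells (top) and amino acid starved over log phase cells (bottom); red is higher in starved cells. HEXA is red in all 20 columns of both panels, and IDS is blue in fractions 3 to 7. NPC2 is darkest at fraction 6, where its deposited log phase signal was only 0.83.

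Between the starvations none of the 9 mRNAs met either size rule. Amino acid starved cells had a median shift of -0.21 fractions relative to serum starved cells, and 0 of the 9 met the size rule, against 2.01% of genes towards higher and 1.06% towards lower numbers (3.07% in all). IDS was highest at 0.80 (odd 1.39, even 0.26), and it met the rule at 1.05 without fraction 4. LAMP1 was lowest at -0.45. The median level difference was -0.10 on the log2 scale with 0 of 8 past the rule, against 0.187% of genes higher and 0.0401% lower (0.227% in all). LAMP1 at -0.25, CTSD at -0.22 and IDS at -0.19 were the lowest and NPC2 at 0.09 the highest. At single fraction numbers between 0 and 5 of the 9 were above the median gene. CTSD had a mean relative signal of 101 in amino acid starved and 145 in serum starved cells in fractions 18 to 22, and LAMP1 63.5 and 84.8.

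Other genes of the pathway were taken from lists, 42 further hydrolases and activators, 32 membrane proteins, 17 subunits of the V-ATPase that acidifies the lysosome, 17 genes of mannose 6-phosphate sorting and 8 regulators of the TFEB network among the tested genes. TFEB and MITF themselves were not among the genes of the table. Of these lists the hydrolases had the highest median level difference from log phase. All 35 counted were above the median gene in serum starved cells, with a median of 0.72 on the log2 scale, 10 past the rule as higher and 0 as lower. In amino acid starved cells 31 of 34 were above it, with a median of 0.72, 8 past the rule as higher and 0 as lower. Over all genes 3.06% and 4.96% were past it as higher. MAN2B1, lysosomal alpha-mannosidase, was highest at 1.63 and 1.71, and the lowest were HYAL2 at 0.18 in serum starved and CTSL at -0.09 in amino acid starved cells.

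The shifts of these hydrolases had medians of -0.04 and -0.16. In serum starved cells MAN2B1 (-2.31), MANBA (-1.52) and DPP7 (-1.36) met the rule towards lower numbers and RNASET2 (1.67) and CTSL (1.53) were among those that met it towards higher. In amino acid starved cells MAN2B1 (-2.49), ARSB (-1.31), CTSH (-1.09) and CTSF (-1.03) met it towards lower numbers and CTSL (1.58) and RNASET2 (1.56) towards higher. Of the 42 tested, 3 and 4 met it towards lower and 3 and 2 towards higher numbers. Over all genes, here and for the lists below, 9.86% and 9.57% met it towards lower and 5.7% and 6.84% towards higher numbers. ARSB was also past the rule between the starvations, at -1.17 in amino acid relative to serum starved cells. MAN2B1 thus resembled NPC2 in the size of its shift, with a position of 13.45 in serum starved, 12.82 in amino acid starved and 17.11 in log phase cells.

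Membrane proteins had median level differences of 0.46 and 0.30, with LMBRD1 (1.09) and TMEM9 (1.01) past the rule in serum starved and LMBRD1 (1.19) and CD63 (1.13) in amino acid starved cells. CTNS, the cystine exporter, was lowest at -0.39 and -0.62. Their shifts had medians of 0.12 and 0.05, and LAPTM4B (1.05 and 1.01) and TPCN2 (1.46 and 1.48) met the rule towards higher numbers. SIDT2 was lowest in serum starved (-0.67) and TMEM9 in amino acid starved cells (-0.72).

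V-ATPase subunits had median level differences of 0.14 and -0.02. The accessory subunit ATP6AP1 was past the rule as higher in both (1.17 and 1.05), and ATP6V1H was past it as lower in amino acid starved cells (-1.14), where serum starved cells had -0.75. ATP6V1E1 (2.01 and 2.34) and ATP6V1D (1.47 and 1.28) had shifts past the rule towards higher numbers, and ATP6V1A was lowest at -0.56 and -0.58. Sorting genes had medians near 0, at -0.05 and -0.19 for level and -0.09 and -0.07 for shift. SORT1 (1.03 and 1.33) and, in serum starved cells, GNPTG (1.04) were past the level rule, and AP1G1 was lowest at -0.67 and -0.84. GNPTAB (-1.54 and -1.07) and GGA3 (-1.16 and -1.18) met the shift rule towards lower numbers, and AP1S1 was highest at 0.79 and 0.71. Among the regulators RRAGD had a shift of -1.06 in serum starved and -0.47 in amino acid starved cells, FLCN was highest at 0.52 and 0.75, and 0 of the 6 counted were past the level rule. Their lowest level differences were those of ZKSCAN3 at -0.48 in serum starved and RRAGC at -0.79 in amino acid starved cells, and the highest those of FLCN at 0.11 and RRAGD at 0.48.

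Of the genes of the secretory pathway outside the lysosome 35 were counted, and 31 were above the median gene in serum starved and 30 in amino acid starved cells, with medians of 0.58 and 0.62. The level rule was met as higher by 9 and 7 of them and as lower by 0, against 3.06% and 4.96% of all genes as higher. DDOST was highest at 1.34 and 1.42, and TFRC at -0.64 and HSPA5 at -0.35 were lowest. Their shifts had medians of 0.03 and -0.13, with SSR2 lowest at -1.80 and -2.16 and APP at 0.72 and SPCS1 at 1.19 highest. In serum starved cells SSR2, DDOST (-1.54), SSR4 (-1.48), CANX (-1.08) and TFRC (-1.03) of the 37 tested met the shift rule towards lower numbers, and 0 towards higher. In amino acid starved cells 6 of the 37 did so and 2 met it towards higher numbers. Over all genes 9.86% in serum starved and 9.57% in amino acid starved cells met it towards lower numbers, and 5.7% and 6.84% towards higher. No test set the lists against each other. Between the starvations the hydrolases ran from ARSB (-1.17) to MANBA (0.58) in shift and had level differences of -0.45 (NAGLU) and above, and the membrane proteins from TPCN1 (-0.52) to MFSD8 (0.83) in shift and from LAPTM4A (-0.37) to SLC17A5 (0.33) in level. The V-ATPase ran from ATP6V1H (-0.53) to ATP6V0E2 (0.49) and from ATP6V1H (-0.37) to ATP6V1A (0.12), and the sorting genes from AP1B1 (-0.53) to GNPTAB (0.48) and from AP1B1 (-0.28) to SORT1 (0.31). The regulators ran from RRAGA (0.02) to RRAGD (0.61) and from RRAGC (-0.40) to RRAGD (0.47), and the secretory genes reached 0.95 (TFRC) in shift and ran from HSPA5 (-0.29) to TFRC (0.43) in level.

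**Figure D4:**
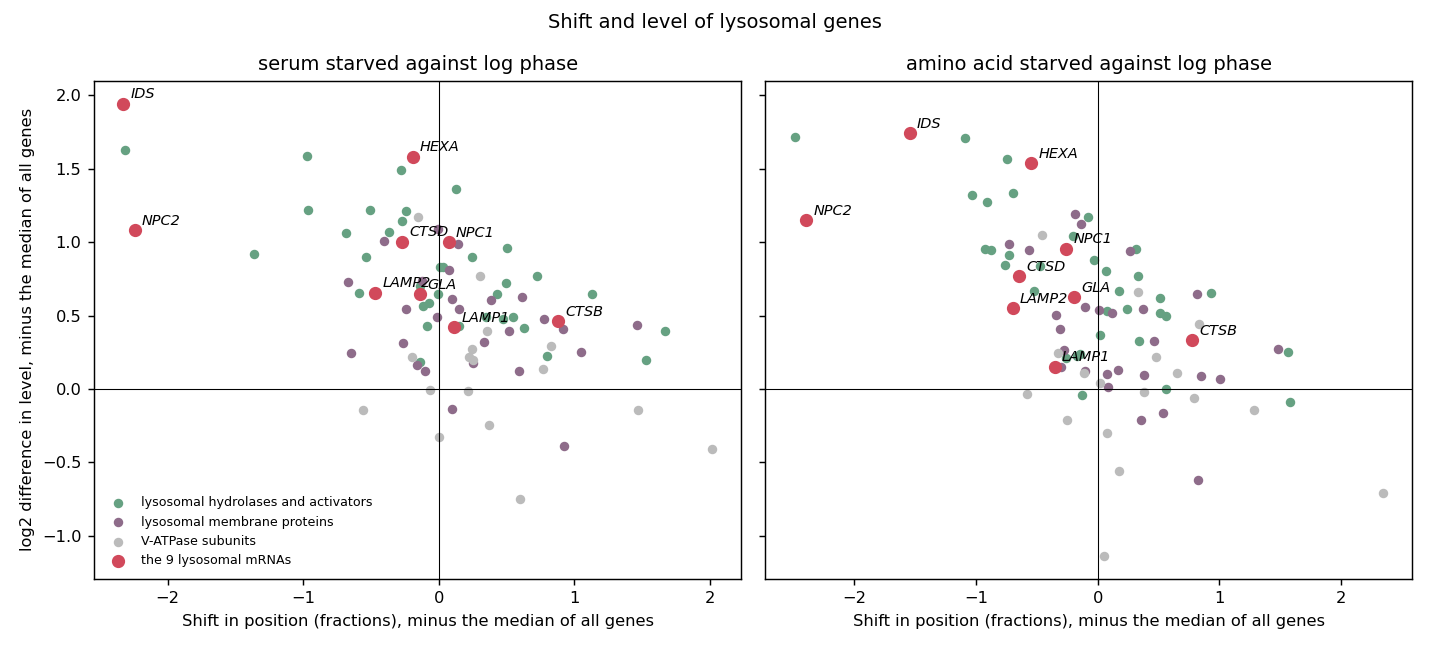
Shift in position (horizontal axis, fractions) against log2 level difference (vertical axis), both relative to the median of all genes, for serum starved (left) and amino acid starved (right) against log phase cells; green, purple and grey points are the other hydrolases, membrane proteins and V-ATPase subunits, and red points are the 9 lysosomal mRNAs, NPC1 and, on the right, LAMP2 being under the level minimum. NPC2 and IDS lie to the left at shifts of -1.54 or lower, and HEXA lies at 1.58 and 1.54 on the vertical axis.

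The genes lie on 7 chromosomes of GRCh38.p14. CTSB is at chromosome 8, 11842524 to 11868087, CTSD at chromosome 11, 1752755 to 1763927, LAMP1 at chromosome 13, 113297239 to 113323672, and NPC2 at chromosome 14, 74479935 to 74493512. HEXA is at chromosome 15, 72340924 to 72376014, and NPC1 at chromosome 18, 23506184 to 23586506. GLA, LAMP2 and IDS are on chromosome X at 101397803 to 101407925, 120426148 to 120469349 and 149476988 to 149505306. CTSD, NPC2, NPC1 and GLA overlap other annotated genes (PRADX, SYNDIG1L, MIR4709 and RAP1AP, RMC1, and RPL36A-HNRNPH2), none of which was listed in the table under that name.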

How the data were processed

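HEK293 lysates were separated on 1 gradient per condition, and poly(A) RNA of 60 fractions was measured as stranded libraries, per the labels' protocols. The 3 lysates were not analysed here. The submitters' processing notes name kallisto 0.44.0, sleuth 0.29.0 and the build hg38. The signal deposited by the authors is called TPM in its table, but columns have unequal totals, so a further scale was applied by the authors, and depth is unknown. The 29 ERCC rows and the luciferase row, both spike-in RNA, were left out of gene totals.

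From this signal, positions, shifts, levels (pseudocount 1) and relative signal (per 1000000 of a fraction) were computed with Python 3.11.15 and pandas 2.3.3. Tested genes had a mean of 5 or more in each gradient and values above 0 in at least 15 of 20 fractions. The calculation was tested on simulated data. With 1 gradient per condition no test was run. The members, lists and size rules were chosen with earlier results of these data known. From each other list the highest and lowest member was named, with any past a rule where 6 or fewer were. For likeness the 3 genes of highest r were named. A few genes these rules pick are not reported here. Alternatives covered the scale, single fractions, centring, filter, pseudocount and log2 weights. Sequences are RefSeq's.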

Additional observations from a re-analysis of the deposited data

How the results depend on the processing

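No paired analysis was possible because each condition has 1 gradient. Centring within bins of protein length was not run, since no protein table was used here. The cause of each change below was not tested. The share of all genes past a rule was not computed under these alternatives, so the counts below have no background beside them. With equal fraction totals the median position of the 9 was higher in serum starved (16.32) and amino acid starved cells (16.18) than in log phase (14.30), the reverse of the deposited scale. With every fraction scaled to the same total, the log phase median position was 14.30 (17.42 as reported), the counts of shifts past the rule were 1 in serum starved and 4 in amino acid starved cells (2 each), with CTSD at -1.25 and LAMP1 at -1.16 added and, in serum starved cells, IDS lost, and the IDS level differences were reversed at -1.21 and -1.39. With ERCC scaling the position was 17.55, shift counts were 1 and 1, with the amino acid shift of IDS reversed at 0.25, level counts 2 and 1, the serum level median 0.70 and that between starvations -0.071. From log2 signal the position was 14.69, shift counts 0 and 0, the amino acid median shift -0.065 and that between starvations -0.031. Without centring the median shifts were -1.54, -2.35 and, between starvations, -0.68, with counts of 8 and 9. The shift of the median gene was then -1.35 and -1.80, itself past 1 fraction in both comparisons with log phase. The level medians without centring were 0.40, 0.18 and -0.28, with counts of 2 and 1. Without the filter the serum level median was 0.92 and that between starvations -0.14. A pseudocount of 10 gave level medians of 0.62 and 0.51 and counts of 2 and 2. Leaving out single fractions gave positions of 16.94 to 17.62, median shifts of -0.34 to -0.14, -0.68 to -0.36 and -0.27 to -0.12, level medians of 0.78 to 1.04, 0.71 to 0.89 and -0.14 to -0.059, level counts of 3 to 4, 2 to 3 and 0 to 0, and shift counts of 2 to 2, 2 to 2 and 0 to 1. Without fraction 19 LAMP2 took the place of IDS among the amino acid shifts past the rule. NPC2 was under the level rule without fraction 9, at 0.91 and 0.98, with ERCC scaling, at 0.97 and 0.97, with a pseudocount of 10, at 0.84 and 0.85, without centring, at 0.65 and 0.56, and in amino acid starved cells with equal totals, at 0.94. Leaving out fractions 6 and 7, chosen after seeing their log phase totals, changed no count and no direction of a member past a rule.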
